A study of Mus musculus with 5 samples.

Results

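A set of 8 genes of non-image-forming light detection were followed in mouse retinas after form deprivation, the blurring of one eye's image that drives a young eye towards myopia. They were the non-visual opsins Opn4, Opn3, Opn5 and Rrh, and the genes Eomes, Tbx20, Adcyap1 and Trpc7, which are known for their expression in melanopsin ganglion cells. They were chosen by gene symbol from the 33636 genes of the count table, each symbol had 1 entry, and all 8 members passed the count filter that left 17432 genes to be tested. At an unadjusted p of 0.05, 0 of the 8 passed the edgeR test between form-deprived and control eyes. The melanopsin gene Opn4 passed it with the mouse as a block or without 1 of the control eyes, the same eye that has no partner in that block. Adcyap1 passed without another control eye. Neither passed after adjustment, and more of all genes tested passed in these settings too. In both paired mice the values of Opn4 and Adcyap1 were lower in the goggled eye, an arrangement found in 30.3% of all genes tested. For Opn4 it did not hold by label number, which pairs the second FDM eye with an eye numbered as another mouse. In the comparison of groups, Eomes, Trpc7 and Rrh had log2 fold changes between -0.12 and 0.03. Tbx20, Opn3 and Opn5 were at -0.12, -0.15 and 0.16, with wider intervals.

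Melanopsin ganglion cells are the few retinal ganglion cells that respond to light by themselves. Light activates the opsin melanopsin, which signals through a Gq-type G protein and phospholipase C to open TRPC channels, and the cells report overall brightness to the clock and pupil centres of the brain. They release glutamate and the neuropeptide PACAP, and T-box transcription factors take part in their formation and upkeep. The other non-visual opsins are found in scattered retinal cells or, in the case of peropsin, in the retinal pigment epithelium (RPE), the pigmented layer behind the retina.

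All mice were wild-type males of the inbred strain C57BL/6J. The right eye carried a diffuser goggle on a head mount from postnatal day (P) 28 for 2 weeks, the left eye was uncovered, and the retinas were taken at P42. The 2 libraries of goggled eyes are called FDM 1 and FDM 3 and the 3 libraries of uncovered eyes Control 1, Control 2 and Control 3. Mouse 1 gave FDM 1 and Control 1, mouse 3 gave FDM 3 and Control 3, and the fellow eye of Control 2 was not analysed here. The sample labels number the second FDM library 2, whereas the count table and the study's supplement number it 3. The pairing by mouse rests on the number 3, and the ratio of FDM 3 to Control 2, its partner by label number, is given for each member as well. The refractive error at P42, in dioptres, was 0.976 and 0.2745 in the FDM eyes and 2.4455, 3.1505 and 2.465 in the control eyes, so both goggled eyes were the more myopic. A control eye is the fellow eye of a goggled animal and not an eye of an untreated animal. The p-values are set against the spread between these eyes of 3 mice, moderated over all genes. Without the mouse block, the test treats both eyes of a mouse as separate samples.

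Estimated counts summed to between 40599047 and 56534931 per library, and 3 counts, the smallest level treated as detected, corresponded to 0.0526 to 0.0751 CPM, a read count scaled to the library total and its TMM factor. Markers of rods, bipolar, amacrine and Müller cells, such as Gnat1, Pde6b and Glul, summed to 16182 to 20247 CPM per library, and 0 of these 8 genes passed the edgeR test between groups. Markers of neighbouring tissue were uneven. The summed level of 8 lens genes was 1914 CPM in FDM 3 and between 2.86 and 18.6 CPM elsewhere. The summed level of 12 RPE genes was 73.6 to 82.4 CPM in FDM 1, FDM 3 and Control 1 but 254 CPM in Control 2 and 300 CPM in Control 3. The summed level of 4 skeletal muscle genes was 46.3 CPM in Control 3 and 6.29 to 7.65 CPM elsewhere, and that of 3 blood genes 18.1 to 27.3 CPM. All 8 lens genes (Cryaa, Cryba1, Cryba4, Crybb1, Crybb2, Bfsp1, Bfsp2 and Mip) were higher in FDM at p under 0.05 (median log2 fold change 5.54, but -1.26 without FDM 3), and 0 of the 3 muscle genes tested, such as Acta1, and 0 of the 3 blood genes, such as Hbb-bs, passed in edgeR. DESeq2 called 8 lens genes, 1 muscle gene and 0 blood or retinal marker genes. In whole retina, fewer cells of a type and less RNA per cell cannot be told apart.

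**Figure D1:**
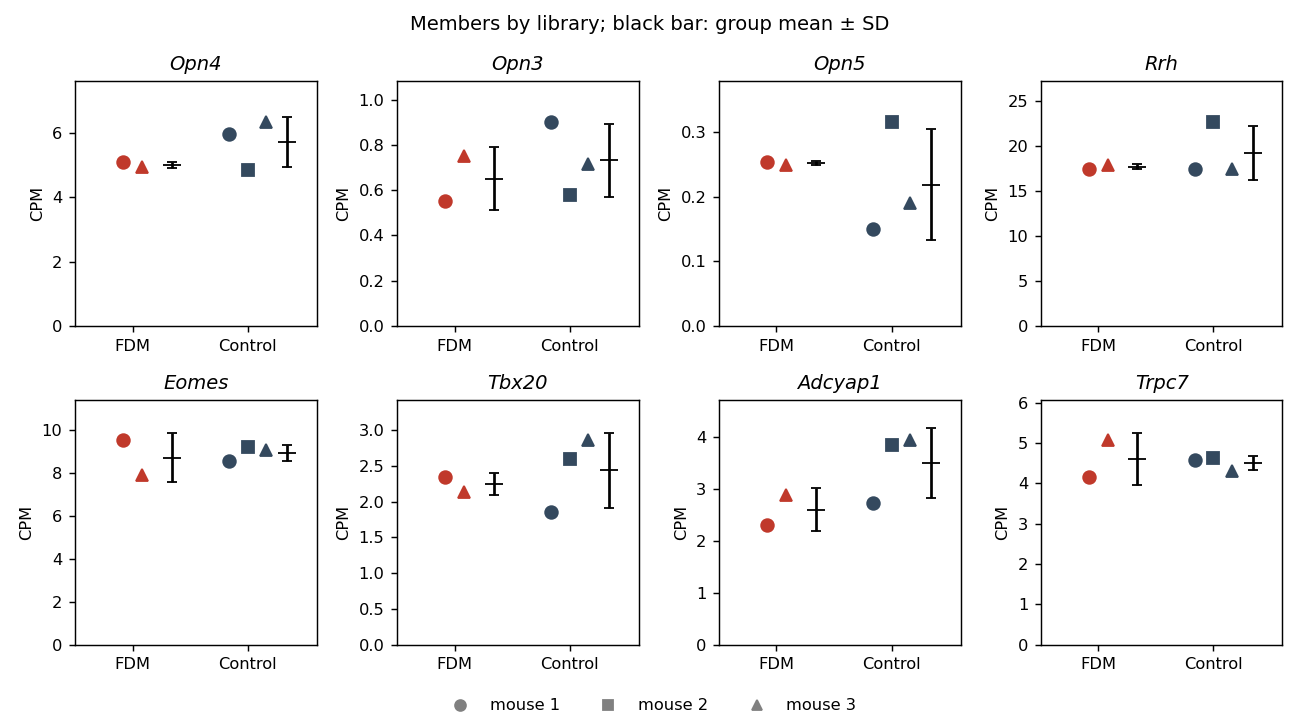
Level in CPM (vertical axes, each starting at 0) of the 8 members in each library, with the FDM libraries in red, the control libraries in dark blue, the mouse given by the marker shape and the group mean ± SD as a black bar. In no panel do both red points lie below or above all blue points, and for Opn4 and Adcyap1 the red point of mice 1 and 3 lies below the blue point of the same shape.

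Opn4 encodes melanopsin, the photopigment that defines the cells. Its gene (ENSMUSG00000021799) lies on the minus strand at chr14:34590618-34600142 of GRCm38. The counts were 220 and 237 in FDM 1 and FDM 3 and 238, 276 and 301 in Control 1, 2 and 3, which corresponded to 5.08 and 4.93 CPM against 5.96, 4.84 and 6.34 CPM. The lowest level was thus in a control eye, Control 2, and both FDM eyes lay between it and the other controls, so the groups overlapped. The means were 5 ± 0.104 CPM (SD, n = 2) in FDM and 5.71 ± 0.779 CPM (SD, n = 3) in control eyes. The log2 fold change was -0.19 (SE 0.15, 95% interval -0.55 to 0.16, unadjusted p = 0.247 by edgeR's quasi-likelihood test). After Benjamini-Hochberg adjustment over all genes, the adjusted p was 1.0 for Opn4 and for every other member. The exons of Opn4 share 130 bases (4.39%) with the antisense gene Gm49012, and the libraries do not tell strands apart.

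Within mice, Opn4 was lower in the goggled eye of both animals. The log2 ratio of the FDM to the control eye was -0.23 in mouse 1, with a 95% exact counting interval from -0.50 to 0.04, and -0.36 in mouse 3, with an interval from -0.61 to -0.11. With the mouse as a block, the log2 fold change was -0.30 (95% interval -0.59 to -0.01, edgeR, unadjusted p = 0.0452, adjusted p = 0.683), which passed the unadjusted threshold only. This fit leaves 1 residual degree of freedom, so its p-value and interval also rest on the spread that edgeR estimates over all genes. It called 7.23% of all genes tested. Control 2 has no partner in it and does not enter the difference, so the fit is close to leaving Control 2 out. Without Control 2, the control eye with the least Opn4, the unblocked log2 fold change was -0.29 (edgeR, unadjusted p = 0.0482, adjusted p = 1.0). Leaving out Control 2 raised the calls over all genes tested from 281 to 550. Paired by the label number instead, FDM 3 and Control 2 differed by a log2 ratio of 0.03, and the block by that number gave -0.10 (edgeR, unadjusted p = 0.589). The difference in Opn4 thus depended on which control eye FDM 3 was set against. By the study's mouse numbers, Control 2 came from another mouse than FDM 3.

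Opn3, or encephalopsin, is an opsin expressed in brain and many other tissues. It (ENSMUSG00000026525, chr1:175662421-175692776, minus strand) had only 24 and 36 counts in the FDM eyes and 36, 33 and 34 in Control 1, 2 and 3. The levels were 0.554 and 0.749 CPM against 0.902, 0.579 and 0.716 CPM, with FDM 1 lowest and FDM 3 second highest. The log2 fold change of -0.15 (SE 0.29, 95% interval -0.84 to 0.53, edgeR, unadjusted p = 0.62) had a wide interval on both sides of 0. The log2 ratio was -0.70 (counting interval -1.51 to 0.08) in mouse 1 and 0.06 (-0.65 to 0.78) in mouse 3, and 0.37 for FDM 3 over Control 2, with a counting interval that also includes 0. Its exons share 461 of 1913 bases (24.1%) with Chml on the same strand, whose counts of 247 to 460 were higher in every library, so its estimate depends on how reads were split between the 2 genes.

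Opn5, or neuropsin, responds to short wavelengths and marks a small set of ganglion cells. It (ENSMUSG00000043972, chr17:42556783-42611395, minus strand) was the scarcest member, with 11 and 12 counts in FDM 1 and FDM 3 and 6, 18 and 9 in the controls, or 0.254 and 0.25 CPM against 0.15, 0.316 and 0.19 CPM. All libraries were above the limit of 3 counts. With so few counts the log2 fold change of 0.16 (SE 0.44, 95% interval -0.86 to 1.19, edgeR, unadjusted p = 0.721) had the widest interval of the members, and no difference was detectable at this depth. The log2 ratio was 0.76 (counting interval -0.80 to 2.48) in mouse 1, 0.40 (-0.97 to 1.82) in mouse 3 and -0.34 (-1.53 to 0.79) for FDM 3 over Control 2.

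Rrh encodes peropsin, an opsin of the RPE that is thought to bind retinaldehyde. It (ENSMUSG00000028012, chr3:129804408-129822587, minus strand) had 760 and 861 counts in the FDM eyes and 697, 1294 and 833 in the controls, or 17.5 and 17.9 CPM against 17.5, 22.7 and 17.5 CPM. All libraries but Control 2, which stood above the rest, were nearly equal. FDM and control eyes differed by a log2 fold change of -0.12 (SE 0.13, 95% interval -0.43 to 0.19, edgeR, unadjusted p = 0.4). Within mice, the log2 ratio was 0.01 (counting interval -0.14 to 0.16) and 0.03 (-0.11 to 0.17), and without Control 2 the log2 fold change was 0.03. Against Control 2, its partner by label number, FDM 3 was lower at -0.34 (-0.47 to -0.22).

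The other genes of the RPE had a different order of libraries from Rrh. Of 12 RPE markers, 8 were lower in FDM eyes at p under 0.05 and none higher (median log2 fold change -1.45, against -0.01 over all genes tested), though only 2 passed without FDM 3 and 3 without Control 3. The median was -0.85 without Control 3 and -0.76 with the block by label number. The 8 were Rpe65, Lrat, Ttr, Kcnj13, Slc6a20a, Rdh5, Stra6 and Slc16a8, and ranged from -2.63 for Kcnj13, a potassium channel, to -0.70 for the vitamin A transporter Stra6. Rgr, a second opsin of the RPE that also occurs in Müller glia, had 19.8 and 16.2 CPM in FDM eyes and 23.3, 70 and 68.5 CPM in the controls. Its group difference was -1.58 on the log2 scale (SE 0.44, edgeR, unadjusted p = 0.0083, adjusted p = 1.0). The eyes of mouse 1 were close, in Rgr and in the summed RPE markers (81.2 CPM in FDM 1 and 82.4 CPM in Control 1), whereas those of mouse 3 were far apart. The cone opsins Opn1sw and Opn1mw did not pass, at -0.15 and 0.11. Control 3, whose summed RPE markers were the highest of the 5 libraries, held 17.5 CPM of Rrh, as did Control 1, where those markers summed to 82.4 CPM.

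**Figure D2:**
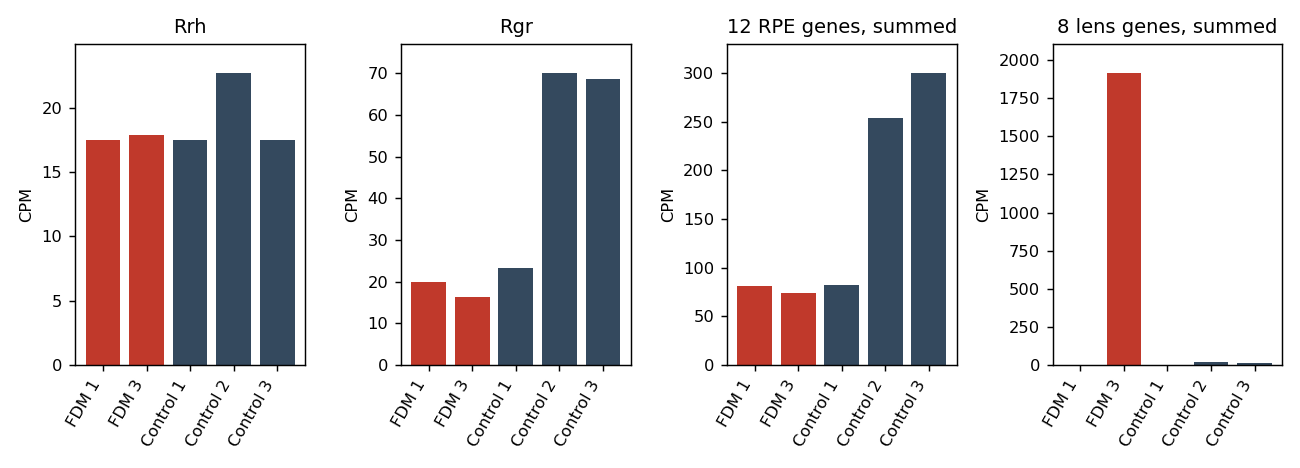
Level in CPM (vertical axes, each starting at 0) of Rrh, of Rgr, of 12 RPE genes summed and of 8 lens genes summed, 1 bar for each library, FDM in red and control in dark blue. Rgr and the RPE sum were high in Control 2 and Control 3 and low in the other libraries, Rrh was close to 17.5 CPM in all but Control 2, and the lens sum was high in FDM 3 alone.

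Eomes, also called Tbr2, is the T-box transcription factor most closely tied to the melanopsin ganglion cells. It (ENSMUSG00000032446, chr9:118478212-118486132, plus strand) had 412 and 380 counts in FDM 1 and FDM 3 and 340, 524 and 429 in the controls. Its levels of 9.5 and 7.9 CPM in FDM eyes were the highest and the lowest of all libraries, around controls of 8.52, 9.19 and 9.03 CPM. Between the groups the log2 fold change was -0.04 (SE 0.12, 95% interval -0.32 to 0.25, edgeR, unadjusted p = 0.777). The paired mice went opposite ways, by 0.16 (counting interval -0.05 to 0.37) in mouse 1 and by -0.19 (-0.40 to 0.01) in mouse 3, and FDM 3 over Control 2 was -0.22 (-0.41 to -0.02). An antisense gene, Gm33460, overlaps 118 exon bases of Eomes (2.84%).

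Tbx20, a second T-box factor described in these cells and best known from the heart, also had values of opposite sign in the paired mice. It (ENSMUSG00000031965, chr9:24718138-24774303, minus strand) had 102 and 103 counts in FDM eyes and 74, 148 and 136 in the controls, or 2.35 and 2.14 CPM against 1.85, 2.6 and 2.86 CPM. Both FDM eyes lay between the lowest control, Control 1, and the higher pair. Tbx20 gave a log2 fold change of -0.12 (SE 0.22, 95% interval -0.63 to 0.39, edgeR, unadjusted p = 0.589), with log2 ratios of 0.34 (counting interval -0.10 to 0.80) in mouse 1 and -0.42 (-0.80 to -0.04) in mouse 3, and of -0.28 (-0.65 to 0.09) for FDM 3 over Control 2.

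Adcyap1 encodes PACAP, the peptide that melanopsin ganglion cells release together with glutamate, and had the largest log2 fold change among the members. It (ENSMUSG00000024256, chr17:93199017-93206537, plus strand) had 100 and 139 counts in FDM eyes and 109, 220 and 187 in Control 1, 2 and 3, or 2.31 and 2.89 CPM against 2.73, 3.86 and 3.94 CPM. FDM 1 was the lowest library, Control 1 lay between the FDM eyes, and Control 2 and Control 3 were above all others. The means were 2.6 ± 0.412 CPM (SD, n = 2) and 3.51 ± 0.676 CPM (SD, n = 3). The log2 fold change of -0.44 (SE 0.21, 95% interval -0.93 to 0.06, edgeR, unadjusted p = 0.0786) missed the threshold.

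Within mice, Adcyap1 was lower in the goggled eye by a log2 ratio of -0.24 (counting interval -0.65 to 0.16) in mouse 1 and -0.45 (-0.77 to -0.12) in mouse 3, and the mouse block gave -0.35 (95% interval -0.73 to 0.03, edgeR, unadjusted p = 0.0671). FDM 3 was also below Control 2, its partner by label number, at -0.42 (-0.73 to -0.10). The call depended on 1 library: without Control 1 the log2 fold change was -0.58 (edgeR, unadjusted p = 0.0134, adjusted p = 0.75). Leaving out Control 1 raised the calls over all genes tested from 281 to 944, so this shift was not particular to Adcyap1. The 3 libraries with the least Adcyap1 were also those with 73.6 to 82.4 CPM of summed RPE markers, and the 2 with the most held 254 and 300 CPM; the part of this difference in the result was not tested.

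Trpc7 encodes one of the TRPC channels that carry the melanopsin light response. It (ENSMUSG00000021541, chr13:56773113-56895993, minus strand) had 180 and 244 counts in FDM eyes and 183, 264 and 205 in the controls, or 4.15 and 5.07 CPM against 4.58, 4.63 and 4.32 CPM. The FDM eyes were again the lowest and the highest library. Their means gave a log2 fold change of 0.03 (SE 0.14, 95% interval -0.30 to 0.37, edgeR, unadjusted p = 0.821), and the log2 ratios within mice were -0.14 (counting interval -0.45 to 0.16) and 0.23 (-0.04 to 0.51), with 0.13 (-0.13 to 0.39) for FDM 3 over Control 2.

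**Figure D3:**
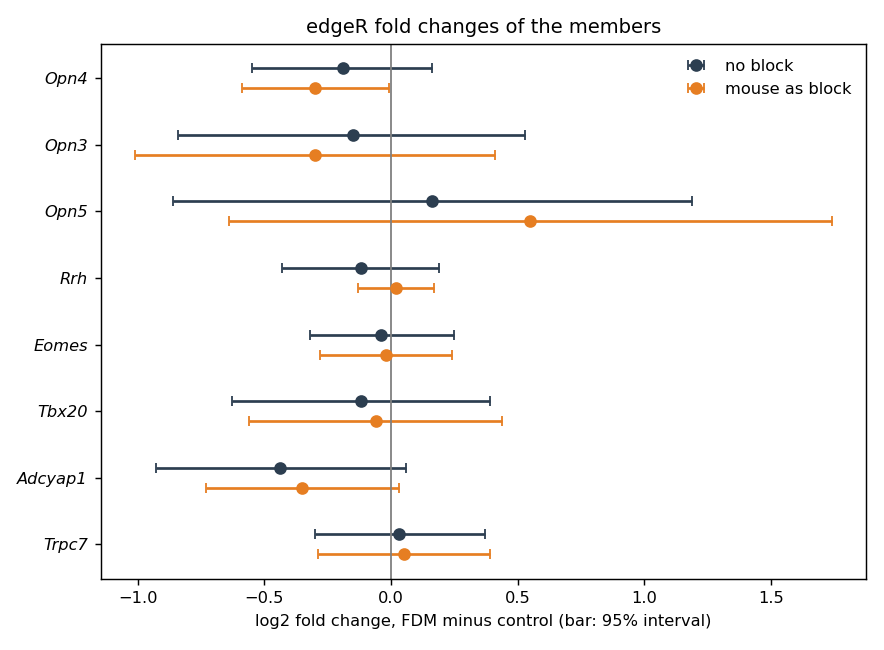
Log2 fold change of each member, FDM minus control (horizontal axis), from edgeR without a block (dark blue) and with the mouse as block (orange), with 95% intervals as bars. Every interval without the block includes 0, and with the block only that of Opn4, from -0.59 to -0.01, does not.

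Counted over the members, 0 of 8 had p under 0.05 in edgeR, where 1.61% of all genes tested did (79 higher and 202 lower, 0 after adjustment), and 0 of 8 did in DESeq2 or in limma on normalized counts. With the mouse block, 1 of 8 passed, against 7.23% of all genes. No member had both FDM libraries below all 3 controls, an arrangement found in 6.67% of all genes, and none had both above all 3, found in 3.97%. The FDM eye was lower than the control eye in both mice for 2 of 8 members, Opn4 and Adcyap1, against 30.3% of all genes, and higher in both for 2, Opn5 and Rrh, against 24.7%. Paired by label number, Adcyap1 was again lower in both pairs, whereas Opn4, Opn5 and Rrh had ratios of opposite sign in the pairs. With 8 members, 1 gene makes up a larger share than most of these percentages, so counts of 0 to 2 members do not set the members apart from other genes.

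**Figure D4:**
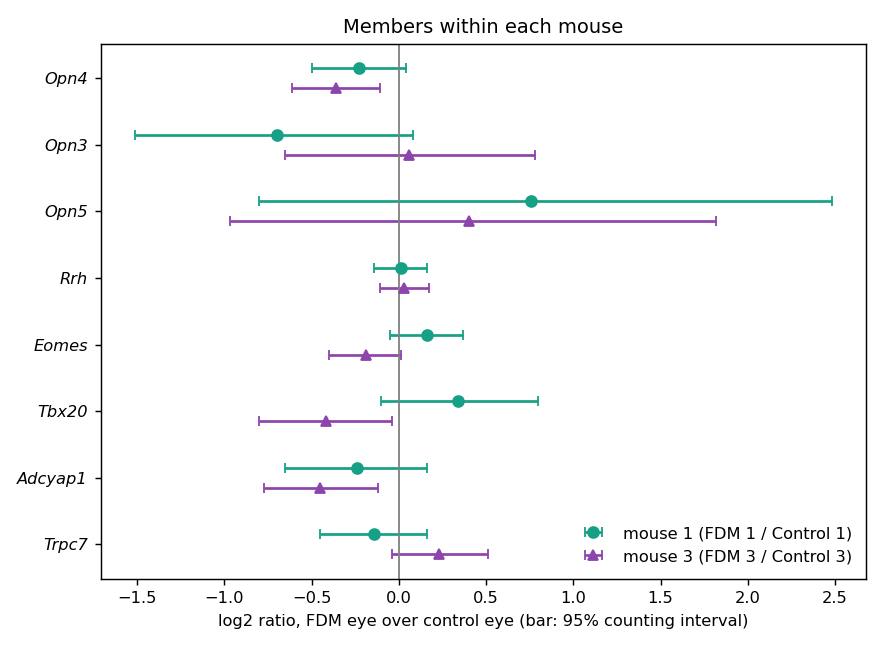
Log2 ratio of the FDM eye over the control eye of the same mouse (horizontal axis) for each member, with mouse 1 as green circles, mouse 3 as purple triangles and exact 95% counting intervals as bars, which cover counting error only. Opn4 and Adcyap1 lie below 0 in both mice, Rrh lies at 0.01 and 0.03, and Eomes, Tbx20, Trpc7 and Opn3 have one mouse on each side of 0.

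The proximal sequences of Opn4 and Adcyap1 are shown because these members were lower in the goggled eye of both mice. Each is the 250 bases before the first base of a RefSeq transcript, read 5′ to 3′ on the strand of the gene in build GRCm38.p6, at chr14:34600143-34600392 (minus strand) for Opn4 and chr17:93198767-93199016 (plus strand) for Adcyap1. Capitals mark AGGTGT, the core letters bound by T-box factors such as Eomes and Tbx20, searched on both strands.
Opn4: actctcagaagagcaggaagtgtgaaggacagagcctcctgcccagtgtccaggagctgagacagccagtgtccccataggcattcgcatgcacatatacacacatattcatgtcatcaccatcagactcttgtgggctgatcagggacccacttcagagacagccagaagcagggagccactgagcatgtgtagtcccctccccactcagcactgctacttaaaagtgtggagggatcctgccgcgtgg
Adcyap1: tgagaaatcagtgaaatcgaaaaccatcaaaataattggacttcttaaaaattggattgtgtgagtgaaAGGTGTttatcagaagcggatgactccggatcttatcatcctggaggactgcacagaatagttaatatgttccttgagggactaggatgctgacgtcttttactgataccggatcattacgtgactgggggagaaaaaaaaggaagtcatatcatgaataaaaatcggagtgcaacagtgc
The Adcyap1 sequence held the core letters once, at position -181 from the transcript start, and the Opn4 sequence did not hold them. Of the 7 members with a RefSeq window of 300 bases, reaching 50 bases past the start, Adcyap1 was the only one with the core, which occurs in 13.7% of all 32851 such windows. Adcyap1 held it at -181 and 45 in the window of the transcript shown, and at -107 in that of another transcript. With 7 members, 1 with the core does not set them apart from all windows. The longer word AGGTGTGA, which contains the core, was in the window of 0 members and in 1.28% of all windows.

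Per kilobase of the longest annotated transcript, the members spanned a wide range of levels under the cone pigments. The cone opsins Opn1sw and Opn1mw averaged 193 and 98.7 CPM per kilobase over the 5 libraries. Rrh averaged 6.2, Opn4 2.52, Eomes 2.48, Trpc7 1.29, Adcyap1 0.927, Opn3 0.366, Tbx20 0.26 and Opn5 0.122 CPM per kilobase. Opn1sw thus exceeded Opn4 77.4-fold on average (66.4 to 92 over the libraries), Opn1mw exceeded it 39.4-fold, and Opn4 exceeded Opn3 7.02-fold and Opn5 22.7-fold. Each of these folds, and the order of the genes, would change with another choice of transcript length. Among neighbours in this order, Opn4 and Eomes overlapped over the libraries, as did Opn3 and Tbx20, whereas Rrh was above Opn4 in every library by 1.99- to 3.36-fold. The level of Rrh depended on the transcript length: with the longest protein-coding transcript, an alternative chosen after seeing the data, it was 10.6 in place of 6.2 CPM per kilobase, and its order with Rgr (8.41) and Rpe65 (7.18) differed between libraries.

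**Figure D5:**
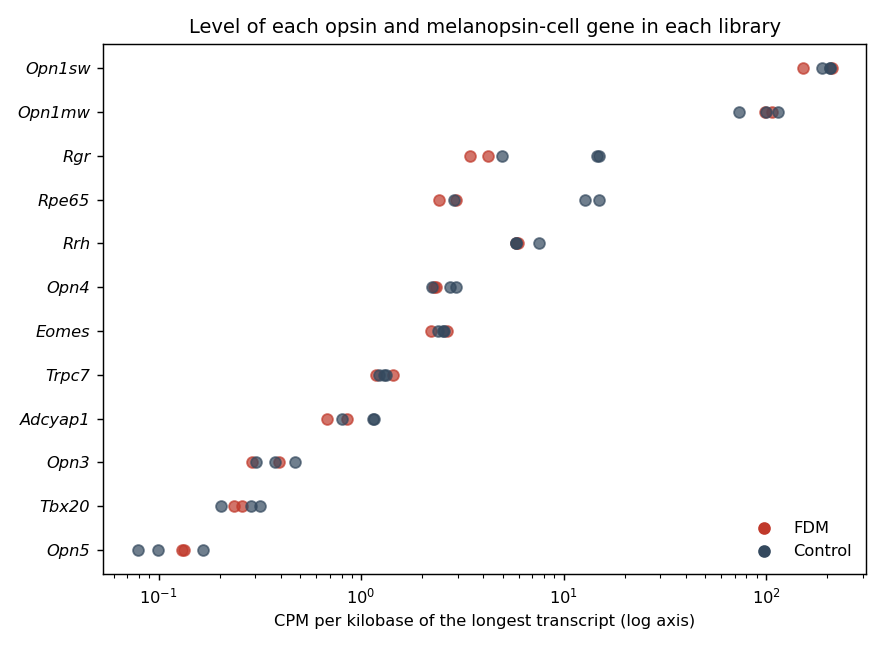
Level in CPM per kilobase of the longest transcript (horizontal log axis) of the members, the cone opsins, Rgr and Rpe65, 1 point for each library, FDM in red and control in dark blue, ordered by the mean. The cone opsins lie at the top, with Opn1sw averaging 193, the members lie between 6.2 (Rrh) and 0.122 (Opn5), and only Rgr and Rpe65 show Control 2 and Control 3 far to the right of the other libraries.

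The spread over the 5 libraries, which are separate eyes, was at least as wide as counting error for all members but Opn5. The coefficient of variation was 22.9% for Adcyap1, where counting alone gives 8.2%, 16.6% against 9.49% for Tbx20, 12.5% against 6.31% for Opn4, and 7.14% against 4.93% for Eomes. For Rrh it was 12.3% against 3.38%, with Control 2 the highest library, and for Trpc7 7.72% against 6.87%. For the scarce Opn3 (20.1% against 17.6%) and Opn5 (27.5% against 30.1%) counting error is large, so these values do not rank the members by how much their levels vary.

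The general markers of ganglion cells were measured beside the members. Of 14 general ganglion cell genes, 0 passed in edgeR in either direction, and their median log2 fold change was -0.05 (range -0.14 to 0.07). The most abundant, the neurofilament genes Nefl and Nefm and the surface protein gene Thy1, had log2 fold changes of -0.06, 0.05 and -0.05. Relative to the mean log2 CPM of these 14 genes, Opn4 was at -3.56 and -3.72 in FDM 1 and FDM 3 and at -3.28, -3.74 and -3.46 in Control 1, 2 and 3, with Control 2 again lowest. The group means differed by -0.15, with SDs of 0.11 in FDM and 0.23 in control eyes, so the difference was within the spread of the controls. The within-mouse differences in this log2 ratio were -0.28 and -0.27. Adcyap1 relative to the same genes differed by -0.39 between groups (SDs 0.15 and 0.18) and by -0.29 and -0.35 within mice.

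Other genes described as enriched in melanopsin ganglion cells had mixed values. Of 8 such genes 0 passed in edgeR in either direction, with a median log2 fold change of -0.05 (range -1.01 to 0.15), which became -0.22 without Control 1. The most abundant were Gem, a small GTP-binding protein gene, at 0.08, Igf1, which encodes insulin-like growth factor, at -0.21, and Rasgrp1, a Ras activator, at -0.06. With the mouse block, 2 were lower: Anxa2 at -0.29 (edgeR, unadjusted p = 0.0183, adjusted p = 0.619) and Crhbp, the gene of the corticotropin-releasing hormone binding protein, at -0.45 (unadjusted p = 0.0186, adjusted p = 0.619). Both were singled out after their values were seen, and the mouse block called 7.23% of all genes tested. Crhbp had 4.36 and 8.42 CPM in FDM eyes and 4.36, 20 and 14.2 CPM in the controls, with an unblocked log2 fold change of -1.01, so that, as for Adcyap1, the eyes of mouse 1 were low and Control 2 and Control 3 high.

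Downstream of melanopsin the log2 fold changes were smaller. Of 10 genes of melanopsin signalling and shutoff, covering the Gq-type G proteins, phospholipase C beta, other TRPC channels, protein kinase C zeta, a receptor kinase and the arrestins, 0 passed in edgeR, and all log2 fold changes lay between -0.06 and 0.06. The most abundant, Arrb1, Prkcz and Grk2, each differed by at most 0.01 on the log2 scale. They averaged 152, 152 and 92.3 CPM in FDM eyes, against 5 CPM for Opn4. Values of such genes in whole retina cannot be assigned to the few melanopsin ganglion cells, where a change could go unseen. With the mouse block 1 passed, Plcb4, the phospholipase of the melanopsin response, at 0.17 (edgeR, unadjusted p = 0.0311, adjusted p = 0.654), also singled out after its value was seen. With 10 genes, 1 call does not set them apart from the 7.23% of all genes called by this block. The PACAP and VIP receptor genes Adcyap1r1, Vipr1 and Vipr2 had log2 fold changes of 0.12, 0.22 and 0.09, and 0 of the 3 passed in edgeR. In DESeq2, too, the count was 0 for the general ganglion cell genes, the other enriched genes, the signalling genes and these receptors.

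Likeness to Opn4 over the 5 libraries was taken as the root mean square difference in centred log2 CPM. It was ranked among 8448 genes at least as abundant as Opn4 and with at least 0.5 times its range over the libraries. The most alike were Dusp5 (0.0435), Jund (0.0441), Endog (0.0466), 3110040N11Rik (0.0491) and Nhp2 (0.051). Dusp5, for instance, had 22.1 and 20.6 CPM in FDM eyes and 26.5, 21.5 and 26.2 CPM in the controls, and it too did not pass the test (log2 fold change -0.21, edgeR, unadjusted p = 0.109). The other members were less like Opn4, at 0.178 for Eomes to 0.395 for Opn5. They were not held to the limits on abundance and range, and those scarcer than Opn4 carry more counting error. With 5 libraries and 8448 genes to choose from, this likeness is a description only.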

How the data were processed

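Retinal poly-A RNA was sequenced by the authors from 5 eyes (2 FDM, 3 control), with a library kit that does not mark strand. According to the submitters' processing notes, the tools were Trimmomatic 0.39, Salmon 1.10.1 and R 4.3.1. The authors deposited estimated counts per gene as whole numbers, and a signal of counts normalized in DESeq2, which was used here in an alternative only. Of the genes, 337 have no symbol.

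Genes with more than 10 estimated counts in at least 2 libraries were tested with edgeR 4.0.16 (TMM, quasi-likelihood) in R 4.3.3, without covariate, at the study's unadjusted threshold of 0.05, with Benjamini-Hochberg adjustment over all genes. Alternatives used DESeq2 1.42.0, limma 3.58.1 (pseudocounts 1 and 0.1), other factors and filters, replicate blocks and each library left out. On simulated counts for this comparison over 17432 genes, edgeR recovered 75.5% of 1.5-fold and 93% of 2-fold changes. The simulated counts held no mouse effect and no uneven neighbouring tissue. At 1.5-fold, 4.61% of the unchanged genes were called, against 1.61% of all genes in the real counts, so recovery in the real data can be lower. The shares are averages over genes of all levels and do not hold for scarce members such as Opn5 and Opn3.

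Eyes were paired by mouse from the contralateral design and the mouse numbers of the study's supplement. Deviations of paired eyes from their group means correlated at 0.247 (mouse 1) and 0.0998 (mouse 3), and at 0.163 for FDM 3 with Control 2, its partner by label number. With 2 FDM libraries, the deviations of FDM 3 are those of FDM 1 with the sign turned. The values are therefore tied to each other and do not decide between the pairings. The pairing by mouse follows the number 3 of the count table and the study's supplement, under which Control 2 came from another mouse. Intervals of ratios of 2 counts are exact at the 95% level and, like the limit of 3 counts, cover counting error only.

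Coordinates are from GENCODE M21 (GRCm38), promoters from RefSeq (GRCm38.p6), in which 7 of the 8 members were matched. The members and the 10 other gene lists were chosen with earlier results of these data known. By rule, the genes named are all members, the genes of each list with p under 0.05 or, where there were none, its most abundant, the defining tissue markers, and the 5 genes most like Opn4. The authors' own comparisons were not used, and 1 gene is not reported here.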

Additional observations from a re-analysis of the deposited data

How the results depend on the processing

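The number of genes with p under 0.05 was 281 in edgeR and moved to 172 in DESeq2, 498 with all genes of at least 1 count, 500 and 493 in limma with pseudocounts of 1 and 0.1, 1261 with the mouse block and 439 with the block by label number, and ranged from 146 to 944 when 1 library was left out (146 without Control 3, 165 without FDM 1, 550 without Control 2, 944 without Control 1). The number of members called was 0 in 11 of 14 alternatives and 1 with the mouse block, without Control 1 (Adcyap1) and without Control 2 (Opn4), so from 0 to 1 with 1 library left out. Opn4 was negative in all 14 alternatives (p from 0.0452 to 0.589): it was -0.30 with the mouse block and from -0.29 to -0.10 with 1 library left out. Adcyap1 was negative in all 14 as well, from -0.61 to -0.28 with 1 library left out. The sign of small differences turned for Rrh with the mouse block (0.02), and for Tbx20 (0.02) and Trpc7 (-0.0019) with the block by label number. With 1 library left out, Opn3 ranged from -0.39 to 0.04, Opn5 from -0.02 to 0.56, Rrh from -0.18 to 0.03, Eomes from -0.17 to 0.09, Tbx20 from -0.28 to 0.01 and Trpc7 from -0.12 to 0.17. The causes were not tested. The mouse block changed no other member's call. Of the other gene lists it moved RPE from 8 to 10 called, muscle from 0 to 3 and the retinal markers from 0 to 1 (Gnat1, -0.15). It also moved the other genes described as enriched in melanopsin ganglion cells from 0 to 2, and those of melanopsin signalling and shutoff from 0 to 1. The median of the lens genes was 5.54 with all libraries and -1.26 without FDM 3. For Opn5 and Opn3, with 6 to 36 counts, depth limits the comparison. Opn5 had too few counts for the filter of more than 10 in all libraries and has no value there.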
